A study of Mus musculus with 7 samples.

Results

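The immediate early transcription factor genes examined here were the 10 Fos, Jun and Egr family genes Fos, Fosb, Fosl1, Fosl2, Jun, Junb, Jund, Egr1, Egr2 and Egr3, chosen by name and found by gene symbol among the 49315 genes of the count files. All 10 were matched, each to a single gene identifier, and all 10 had enough counts to be tested. They were measured by RNA-seq in primary mouse oligodendroglia, with 4 libraries from wildtype controls (titled Klf13_ctrl) and 3 from Klf13 knockouts (titled Klf13_ko). The knockout is constitutive, so that every cell type of the pups, and not only the oligodendroglia, lacked an intact Klf13 gene. Precursor cells were shaken off mixed glial cultures from the brains of newborn pups of both sexes, microglia were depleted, and the cells were kept in SATO differentiation medium containing thyroid hormones for 6 days in both groups. The labels call the libraries biological replicates but do not say whether they came from separate pups or litters. The study counted independent animals or separate experiments as biological replicates, without saying which applies to these libraries. The p-values therefore cover the spread among these libraries, which may in part be technical.

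Immediate early genes are transcribed within a short time of a stimulus, without new protein synthesis, when ERK and other kinases act on factors that are already bound at their promoters, among them SRF with its ELK partners and CREB. Fos and Jun proteins pair through leucine zippers to form AP-1, in which Fos proteins need a Jun partner, whereas Jun proteins can also pair with each other. Egr proteins are zinc finger factors whose activity is held down by the NAB corepressors. Transcripts of these genes are short-lived and answer to growth factors, electrical activity and the handling of cells. Egr2 is known as the master regulator of myelination in Schwann cells, the myelinating glia of the peripheral nervous system, a role it does not have in oligodendrocytes.

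Each library held from 24507471 to 59596479 counts assigned to genes. The genes Gm42418, Gm23935 and Lars2, on which ribosomal RNA reads collect, took 6.03% to 7.56% of the counts in wildtype replicates 2 and 3 and knockout replicate 2, and 14.1% to 18.0% in the other 4 libraries. Klf13 itself had 10920, 11770, 12000 and 10670 normalized counts in the wildtype libraries and 801.6, 876.4 and 961.2 in the knockouts, where a normalized count is a count scaled to the mean effective library size. On the log2 scale it differed by -3.69 between the groups (SE, the standard error, 0.09, edgeR quasi-likelihood test, adjusted p = 6.77e-06). All 10 oligodendrocyte markers (among them Mbp, Mag, Cnp, Myrf and Sox10) were abundant in every library, with summed levels of 24970 to 29470 CPM (counts scaled to library size) in wildtype and 8028 to 9058 CPM in knockout libraries. Of these 10, 7 fell in the knockouts by edgeR at an adjusted p of at most 0.05, beside 12.2% of all genes tested. Marker lists of other cells were present too. By the same rule 9 of 10 neuron markers, 7 of 8 astrocyte markers and 2 of 6 precursor markers rose, beside 11.6% of all genes tested. Endothelial markers summed to 9.15 to 25.65 CPM over all libraries. In these bulk samples, fewer cells of a type and less RNA per cell cannot be told apart.

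Of the 10 genes, Fos, Egr1 and Egr2 fell in the Klf13 knockout (adjusted p no higher than 0.05), and Fos and Egr2 also passed the 2-fold threshold of the study. By the same rule 12.2% of all 18352 genes tested fell and 11.6% rose, 23.8% in all, and with the 2-fold threshold added 3.08% fell and 3.97% rose. In all 3 genes every knockout library lay below every wildtype library, which was so for 18% of the genes tested (18.3% in the opposite direction). No member rose by edgeR's quasi-likelihood test, with 0 higher at an unadjusted p under 0.05, and the same holds for DESeq2's Wald test. The other 7 genes did not pass, with adjusted p of 0.234 to 0.941 in edgeR's test. The median log2 fold change over the 10 genes was -0.28, and 9 of the 10 values were below 0, beside a median of -0.004 over all genes tested. The calls rested on few libraries. When single libraries were left out, between 0 and 3 of the 10 genes passed, with 0 in the absence of knockout replicate 2, only Egr2 in the absence of wildtype replicate 4 and only Fos in the absence of knockout replicate 1.

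**Figure D1:**
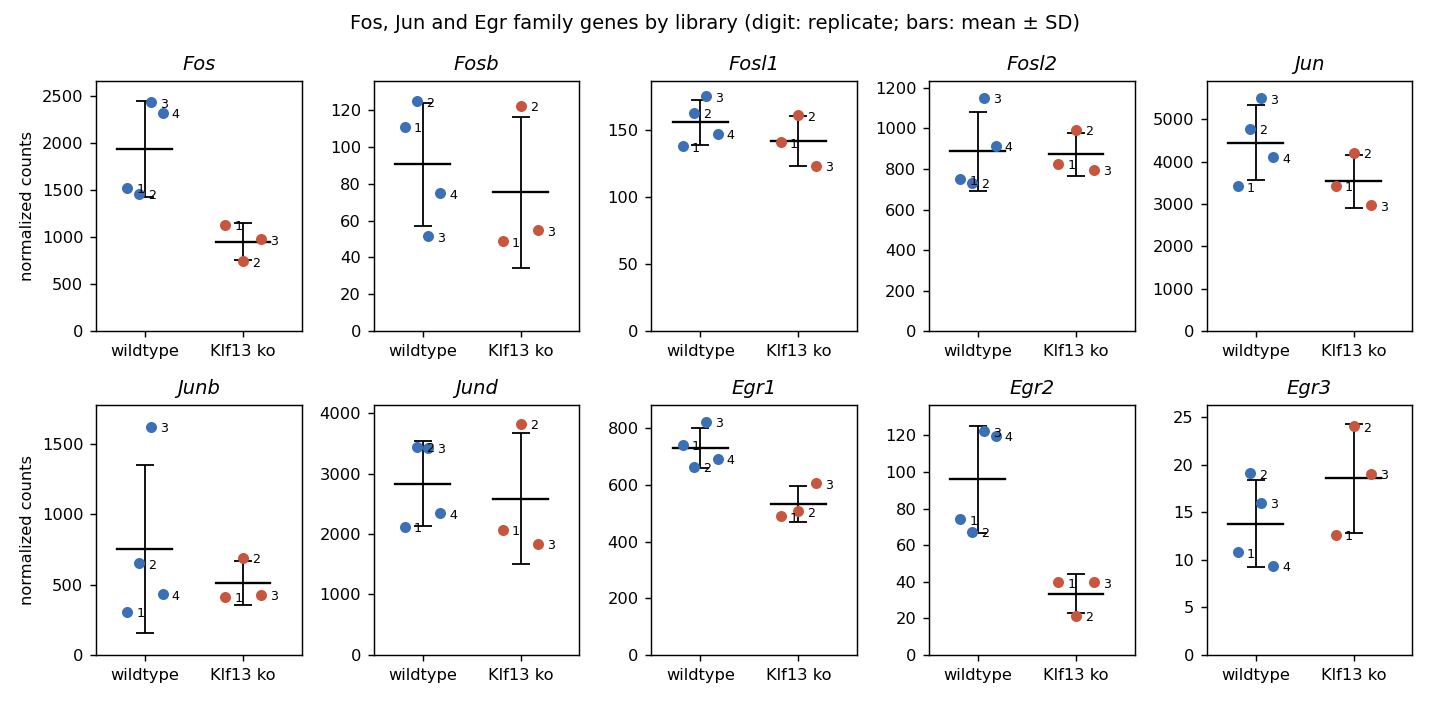
Normalized counts (vertical axes, each starting at 0) of the 10 genes in the 4 wildtype (blue) and 3 Klf13 knockout (red) libraries, with the replicate number beside each point and lines for the mean ± SD. The groups do not overlap for Fos, Egr1 and Egr2, and they overlap for the other 7 genes.

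Fos, on chromosome 12 of GRCm38 from 85473890 to 85477273 (plus strand, protein coding), encodes the prototypic AP-1 subunit. It had 1527, 1465, 2436 and 2326 normalized counts in wildtype replicates 1 to 4 and 1134, 745.1 and 979.4 in knockout replicates 1 to 3. Wildtype replicates 3 and 4 stood above replicates 1 and 2, and every knockout library was below every wildtype library. The means were 1939 ± 513 (SD, n = 4) and 952.8 ± 196 (SD, n = 3), which left the knockouts at 49.0% of the wildtype level. The log2 fold change was -1.03 (SE 0.24, 95% confidence interval, CI, -1.58 to -0.48, edgeR quasi-likelihood test, adjusted p = 0.0200). The adjusted p in edgeR rose to 0.0513 without wildtype replicate 4, to 0.0736 without knockout replicate 2 and to 0.0611 without knockout replicate 3, with log2 fold changes of -0.91, -0.88 and -1.05. When same-numbered libraries were fitted as blocks, it was -0.91, just under 2-fold (edgeR adjusted p = 0.0211).

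Egr2, on chromosome 10 from 67535475 to 67542188 (plus strand, protein coding), changed most of the 10. It had 74.26, 67.37, 122.3 and 119.8 normalized counts in wildtype replicates 1 to 4 and 39.72, 21.31 and 39.6 in the knockouts. As for Fos, wildtype replicates 3 and 4 were the highest, knockout replicate 2 was the lowest, and the groups did not overlap. These values rest on only 55 to 128 counts per wildtype library and 22 to 52 per knockout library. The mean fell from 95.94 ± 29.2 (SD, n = 4) to 33.54 ± 10.6 (SD, n = 3) normalized counts, 34.4% of the wildtype level, or -1.54 on the log2 scale (SE 0.34, 95% CI -2.33 to -0.74, edgeR quasi-likelihood test, adjusted p = 0.0176). Without knockout replicate 1 the adjusted p in edgeR was 0.0503, and without knockout replicate 2 it was 0.0602, with log2 fold changes of -1.64 and -1.27.

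Egr1, on chromosome 18 from 34859823 to 34864984 (plus strand, protein coding), encodes the most abundant Egr factor in these cells and moved less. It had 741.3, 663.7, 824.1 and 692.7 normalized counts in wildtype replicates 1 to 4 and 489.3, 507.3 and 607 in the knockouts. The groups did not overlap, but the gap between wildtype replicate 2 and knockout replicate 3 was narrow. The log2 fold change was -0.45 (SE 0.11, 95% CI -0.72 to -0.18, edgeR quasi-likelihood test, adjusted p = 0.0289), which is 73.3% of the wildtype level. The direction held with each library left out in turn (log2 fold changes of -0.54 to -0.37), whereas the adjusted p in edgeR exceeded the threshold without wildtype replicates 1, 3 or 4 (0.0759, 0.0503 and 0.0639) or without knockout replicates 1 or 2 (0.125 and 0.100). With library sizes that left out the 100 highest genes, the log2 fold change was -0.38 and did not pass either (edgeR adjusted p = 0.0519).

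**Figure D2:**
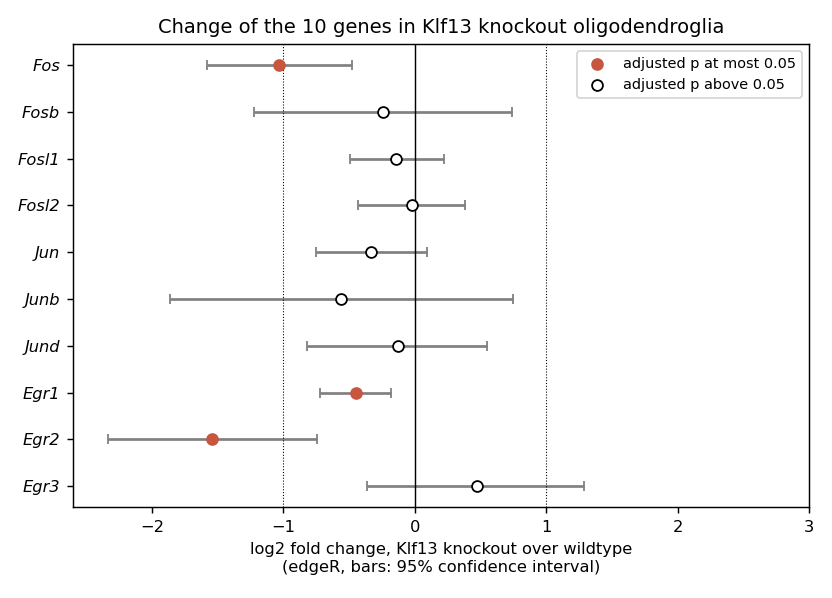
Log2 fold change of each gene in Klf13 knockout over wildtype libraries (horizontal axis) with its 95% confidence interval from edgeR, filled where the adjusted p was at most 0.05, and dotted lines at a 2-fold change. The intervals of Fos, Egr1 and Egr2 lie below 0, and that of Junb runs from -1.86 to 0.75.

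The levels of Fos and Egr2 went in part with markers of fibroblasts and mural cells across the libraries. The summed level of the 8 markers (Col1a1, Col1a2, Col3a1, Dcn, Lum, Pdgfrb, Fn1 and Acta2) was 527.7, 409.1, 1752 and 1404 CPM in wildtype replicates 1 to 4 and 301.3, 182.1 and 425.8 CPM in the knockouts, and none of the 8 was at 0 in any library, although Dcn and Lum went down to 2.749 and 5.416 normalized counts. As for Fos and Egr2, the highest sums were in wildtype replicates 3 and 4 and the lowest in knockout replicate 2. The order differed elsewhere. Wildtype replicate 2 had a lower sum than knockout replicate 3 but more Fos (1465 against 979.4 normalized counts) and more Egr2 (67.37 against 39.6). Knockout replicate 1 also had a lower sum than knockout replicate 3 but more Fos (1134 normalized counts). A subset without wildtype replicates 3 and 4 was chosen after the data were seen. Smaller changes of Fos and Egr2 follow from leaving out their highest libraries. With wildtype replicates 1 and 2 alone against the 3 knockouts, the log2 fold changes of Fos, Egr1 and Egr2 were -0.66, -0.39 and -1.11, and none passed in edgeR (adjusted p = 0.0561, 0.103 and 0.0854). With the mean log2 level of these markers as a covariate beside the genotype, they were -0.41, -0.24 and -0.72 (adjusted p = 0.307, 0.395 and 0.242 in edgeR). The marker level also differed between the groups, so that genotype and marker level are partly confounded in this fit, and over all genes 662 fell and 194 rose, against 2246 and 2122 without the covariate. Of these 8 markers, 1 fell and 0 rose in edgeR (6 fell and 0 rose at an unadjusted p under 0.05, and DESeq2 gave 6 and 0). In edgeR 12.2% of all genes tested fell and 11.6% rose.

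**Figure D3:**
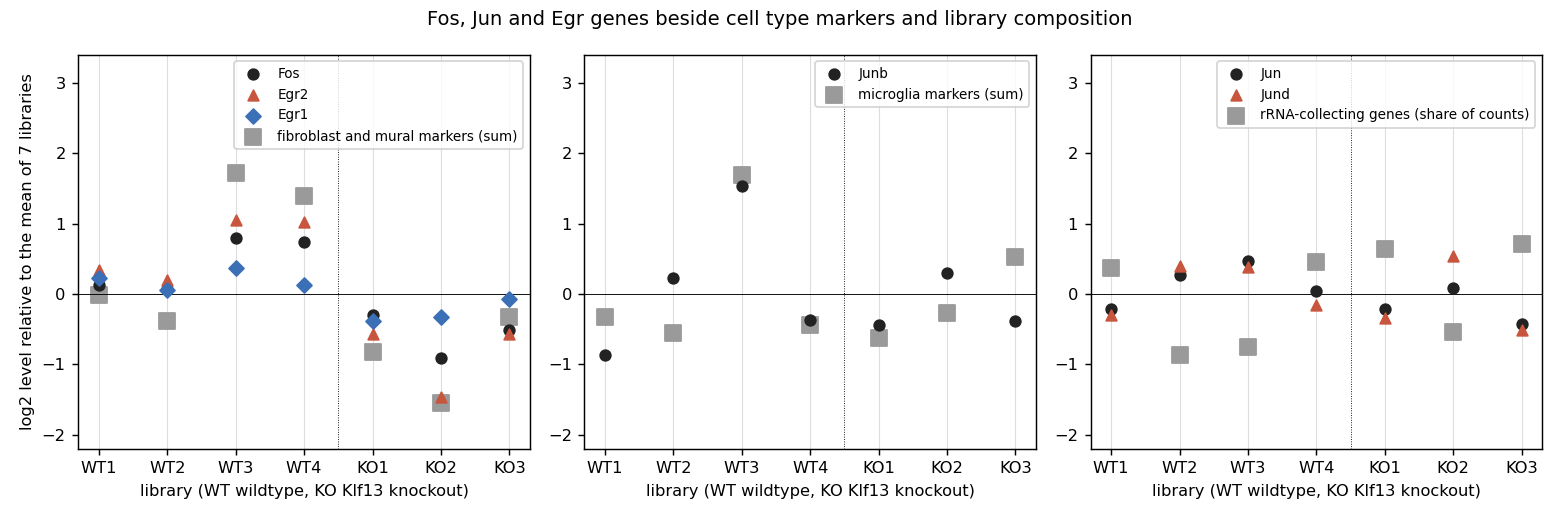
Log2 level relative to the mean of the 7 libraries (vertical axis) in each library (horizontal axis, WT wildtype, KO Klf13 knockout) for Fos, Egr2 and Egr1 beside the sum of fibroblast and mural markers (left), Junb beside the sum of microglia markers (middle), and Jun and Jund beside the share of counts on 3 genes that collect ribosomal RNA reads (right). Fos and Egr2 are highest in WT3 and WT4, Junb is highest in WT3, and Jund is highest in the 3 libraries with the lowest share.

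The promoters of Fos and Egr2 are shown because both genes fell by more than 2-fold, and those of Fosb and Junb because they share a letter motif with them without a change that passed the test. Promoter windows from RefSeq (GRCm38.p6) were used for 7 of the 10 genes, and those of Fosl1, Egr1 and Egr3 were not analysed here. Each line gives the 250 bases before the start site, 5′ to 3′ on the strand of the gene. Capitals mark TGACG, the core of the CREB site, on either strand, and the CArG box, the site of SRF (CC, 6 bases that are A or T, and GG).
Fos, chr12:85473640-85473889, plus strand: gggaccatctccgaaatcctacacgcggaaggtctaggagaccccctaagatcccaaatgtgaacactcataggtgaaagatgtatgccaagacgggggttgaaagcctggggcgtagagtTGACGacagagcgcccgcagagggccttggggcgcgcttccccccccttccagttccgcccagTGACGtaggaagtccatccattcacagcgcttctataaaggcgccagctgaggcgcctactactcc
Egr2, chr10:67537619-67537868, plus strand: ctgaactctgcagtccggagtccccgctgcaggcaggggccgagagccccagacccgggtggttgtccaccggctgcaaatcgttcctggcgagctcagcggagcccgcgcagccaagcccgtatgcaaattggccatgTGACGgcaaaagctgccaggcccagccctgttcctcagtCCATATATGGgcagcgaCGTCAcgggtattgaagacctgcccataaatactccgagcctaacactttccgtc
Fosb, chr7:19310046-19310295, minus strand: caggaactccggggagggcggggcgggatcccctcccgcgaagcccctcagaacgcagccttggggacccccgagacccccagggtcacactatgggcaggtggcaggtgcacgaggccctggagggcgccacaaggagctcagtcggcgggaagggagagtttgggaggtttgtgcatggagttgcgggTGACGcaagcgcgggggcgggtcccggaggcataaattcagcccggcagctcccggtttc
Junb, chr8:84978749-84978998, minus strand: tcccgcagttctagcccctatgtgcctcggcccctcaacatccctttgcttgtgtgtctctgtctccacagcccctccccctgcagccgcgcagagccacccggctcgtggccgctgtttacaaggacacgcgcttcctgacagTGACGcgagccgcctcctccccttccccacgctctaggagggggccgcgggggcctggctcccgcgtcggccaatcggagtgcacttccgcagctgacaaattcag
The Fos window holds TGACG at 129 and at 66 bases before the start, and the letters TATAAA at 33. The Egr2 window, at 1 of 5 start sites listed for this gene and 2394 bases inside the deposited gene start, holds TGACG at 111 and at 55 bases before the start, the latter on the minus strand, and a CArG box at 72. It was picked for print because it holds both. Of the 5 Egr2 windows, several of which overlap, 3 hold TGACG and 4 a CArG box, and the window at the start site nearest to the deposited gene start, 24 bases away, holds neither. In Fosb and Junb, a TGACG lies at 60 and at 106 bases before the start. Of all 27025 genes with such windows, 19.8% hold TGACG and 1.62% a CArG box in at least 1 window, and 4 and 1 of the 7 genes did so. Bases further than 250 before the start were not searched, so a motif missing from a window may still lie near the gene. The full CREB site TGACGTCA (1.77% of all genes) and the AP-1 site TGACTCA or TGAGTCA (5.16%) were found in 0 of the 7. The Klf motif that the study searched for (on both strands, ACGCCC or else ACACCC or else ACTCCC or else CCGCCC or else CCACCC or else CCTCCC) occurred in at least 1 window of all 7 genes, but also of 74.2% of all genes. The window of Jund belongs to a start site 1210 bases upstream of the deposited gene. That of Fosl2 belongs to a start site 671 bases inside the deposited gene, and all 250 bases of the window lie in annotated exons. These are matches of letters, and binding was not measured in these data.

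Jun family genes supplied most of the AP-1 transcripts, and none of the 3 passed the test. Jun, on chromosome 4 from 95049034 to 95052222, encodes the strongest activator of the family and had 3417, 4772, 5493 and 4105 normalized counts in wildtype replicates 1 to 4 and 3434, 4209 and 2969 in the knockouts. Its groups overlapped, with a log2 fold change of -0.33 (95% CI -0.75 to 0.09, edgeR quasi-likelihood test, adjusted p = 0.234). Jund, on chromosome 8 from 70698949 to 70700616, is the member that many resting cells express steadily. It had 2123, 3443, 3428 and 2345 normalized counts in wildtype replicates 1 to 4 and 2074, 3825 and 1842 in the knockouts. The 3 libraries with 3428 or more were those with the lowest share of counts on ribosomal RNA genes, and they belong to both groups. Its log2 fold change was -0.13 (95% CI -0.82 to 0.55, edgeR adjusted p = 0.786), and with that share as a covariate it was 0.14 (SE 0.08, adjusted p = 0.241). The GC content of its longest transcript, 67.1%, was the highest among the 10 genes, followed by Junb at 62.6%. With offsets for GC content the log2 fold change of Jund was -0.31 (SE 0.11, edgeR adjusted p = 0.0834), and with the replicate block added it was -0.35 (SE 0.10, adjusted p = 0.0596).

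Junb, on chromosome 8 from 84974484 to 84978718, encodes a weaker activator that can oppose Jun, and it varied most within the wildtype group. It had 307.8, 653.6, 1623 and 432.5 normalized counts in wildtype replicates 1 to 4 and 413.4, 690.1 and 428.8 in the knockouts. Only wildtype replicate 3 stood above the knockout libraries, and the log2 fold change of -0.56 (95% CI -1.86 to 0.75, edgeR adjusted p = 0.527) became 0.14 without it. The 8 microglia markers (Cx3cr1, Csf1r, Aif1, C1qa, C1qb, Tmem119, P2ry12 and Ptprc) summed to 1708 CPM in that library, to 360.7 to 419.9 CPM in the other wildtype libraries and to 344.2, 439.4 and 758.7 CPM in the knockouts. None of these markers was at 0 in any library, and none changed with the genotype in edgeR or DESeq2 (0 at an unadjusted p under 0.05 in both). Knockout replicate 3, with the next highest sum, had a Junb level below that of knockout replicate 2. With the mean log2 level of the microglia markers as a covariate, the log2 fold change of Junb was -0.09 (SE 0.40, edgeR adjusted p = 0.900).

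The deposited coordinates put each Jun gene beside a gene on the opposite strand. Jund shares 877 of its 1668 exon bases with Gm11175, which had 0 counts in all 7 libraries. Jun shares 232 of 3189 exon bases with Junos, and Junb shares 173 of 2301 with Prdx2. The strand setting of the counting is not given in the sources used here. If strand was not used, reads in the shared bases could be assigned to neither gene, and the level of Jund per length would be too low.

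None of the other 3 Fos family genes passed the test. Fosl2, on chromosome 5 from 32135801 to 32157842, encodes a Fos protein without the strong activation domain of Fos and had 749.4, 733, 1152 and 914.5 normalized counts in the wildtype and 826.9, 993.9 and 797.4 in the knockout libraries. The log2 fold change of -0.02 had a 95% CI of -0.43 to 0.38 (edgeR adjusted p = 0.941). Fosl1, on chromosome 19 from 5447703 to 5455945, encodes a related protein that can itself be an AP-1 target, and it ranged from 137.7 to 174.9 normalized counts in the wildtype and from 123.4 to 160.8 in the knockout libraries. Its log2 fold change was -0.14 (95% CI -0.49 to 0.22). These intervals exclude a 2-fold change of Fosl2 and Fosl1 in either direction. Fosb, on chromosome 7 from 19302696 to 19310051, known for a truncated isoform that builds up under repeated stimulation, had 110.7, 124.7, 51.44 and 74.88 normalized counts in the wildtype libraries and 48.75, 122.4 and 54.84 in the knockouts. High and low libraries occurred in both groups, and the 95% confidence interval of the log2 fold change, -1.22 to 0.74, leaves a 2-fold decrease possible. Counts per gene do not tell the isoforms apart.

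Egr3, on chromosome 14 from 70077445 to 70080157, encodes an Egr factor known from muscle spindles and lymphocytes and had the lowest mean normalized count of the 10 genes in both groups. It had 10.8, 19.11, 16 and 9.36 normalized counts in the wildtype libraries and 12.64, 24.06 and 19.04 in the knockouts, from raw counts of 7 to 35. The groups overlapped, and the log2 fold change of 0.47 (95% CI -0.36 to 1.29, edgeR adjusted p = 0.394) could not be told from 0. It was the only member with a value above 0.

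Per kilobase of exon, which allows levels to be compared between genes, the order in the wildtype was Jund, Jun, Fos, Junb, Egr1, Fosl2, Fosl1, Egr2, Fosb and Egr3. The mean levels ran from 1699 ± 420 normalized counts per kilobase for Jund (SD, n = 4), 1394 ± 279 for Jun and 824.2 ± 218 for Fos down to 14.49 ± 5.35 for Fosb and 9.758 ± 3.2 for Egr3. Jund and Jun overlapped, whereas the lowest Jun level of 1072 was just above the highest Fos level of 1036. Junb, from 133.8 to 705.4, overlapped both Fos above it and Egr1 below it. Fosl2 and Fosl1 overlapped each other and lay below Egr1, and Egr2 and Fosb touched at 19.83 and 19.97. In the knockouts the first 7 places were the same, while Egr2, at 9.872 ± 3.12 normalized counts per kilobase (SD, n = 3), came last behind Egr3 and Fosb, whose ranges it overlapped.

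**Figure D4:**
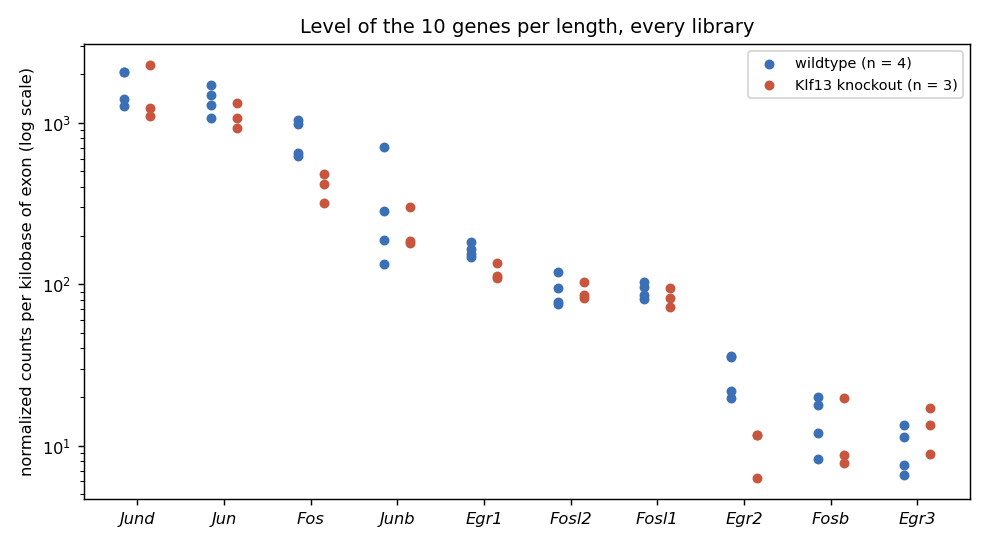
Normalized counts per kilobase of exon (vertical axis, log scale) of the 10 genes, ordered by their wildtype mean, with a point for each of the 4 wildtype (blue) and 3 Klf13 knockout (red) libraries. Jund and Jun are highest in both groups, and Egr2 drops from 8th place in the wildtype to 10th in the knockouts.

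Within the Fos family, Fos made up 76.5% to 83.7% of the summed level per kilobase in the wildtype libraries and 59.4% to 73.3% in the knockouts. The share of Fosl2 was 8% to 9.41% in the wildtype and 13.0% to 19.3% in the knockouts. Within the Jun family, Jund held 45.8% to 53.7% and 49.7% to 58.6%, and the groups overlapped. Within the Egr family, Egr1 held 78.7% to 84.9% and 82.9% to 84.4%, and Egr2 fell from 10.9% to 18.0% in the wildtype libraries to 4.6% to 9.01% in the knockouts. These shares follow from the values above and were not tested on their own.

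Of 15 listed partners and inhibitors of AP-1 from the leucine zipper class, 13 were tested. By edgeR 1 of these fell, 1 rose and 11 did not pass, where 12.2% of all genes tested fell and 11.6% rose. The median of the 13 was -0.37 on the log2 scale. Atf7, which can pair with Jun, fell by 0.37 on the log2 scale (edgeR adjusted p = 0.00637), and its relative Atf2 rose by 0.19 (adjusted p = 0.0334). The Atf2 call was lost with the replicate block and without wildtype replicates 1, 2, 3 or 4 or knockout replicates 2 or 3. Atf4, the most abundant of the list and a factor of the amino acid response, had a log2 fold change of -0.05, and Mafg, a small Maf protein, -0.14. Of the NAB corepressors, Nab1 fell from 2462 ± 276 to 1424 ± 63.8 normalized counts, or -0.79 on the log2 scale (SE 0.09, edgeR quasi-likelihood test, adjusted p = 0.00189), and all 3 knockout libraries were below all 4 wildtype libraries. Nab2 had a log2 fold change of -0.04 (95% CI -0.88 to 0.81), and the family member Egr4, at 0 to 10.83 normalized counts, was not tested.

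The 23 kinases and factors upstream of immediate early genes were all tested. Of these, 2 fell and 5 rose, against 12.2% and 11.6% of all genes, and the median log2 fold change was -0.09. Mapk3, an ERK gene, fell from 6966 ± 534 to 4710 ± 76.9 normalized counts (log2 fold change -0.56, edgeR adjusted p = 0.00195). Crtc1, a coactivator of CREB, rose by 0.50 on the log2 scale (edgeR adjusted p = 0.0102), and Mapk8, a kinase of Jun, by 0.35 (adjusted p = 0.00697). Map2k2, a kinase that activates ERK, had a log2 fold change of -0.04. Without knockout replicate 1, 2 or 3 the number of changed genes was 3, 4 and 4 in place of 7, each time with Mapk3, Crtc1 and Mapk8 among them.

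Of 14 feedback inhibitors and delayed targets of ERK signalling, 6 fell and 0 rose in edgeR (1 higher at an unadjusted p under 0.05, and likewise 0 and 1 in DESeq2), and the median log2 fold change was -0.23. Over all genes tested in edgeR, 12.2% fell and 11.6% rose. Phlda1, a pleckstrin homology domain gene induced by growth factors, fell from 2926 ± 249 to 958.9 ± 69.5 normalized counts (log2 fold change -1.61, edgeR adjusted p = 6.41e-05). Ccnd1, which encodes cyclin D and also belongs to the cell cycle, fell from 11580 ± 2390 to 5460 ± 1070 (log2 fold change -1.09, adjusted p = 0.0085). Spred3, an inhibitor of the RAS to ERK path, fell by 0.54 on the log2 scale (edgeR adjusted p = 0.00749). The abundant Spred1 and Etv1 had log2 fold changes of -0.13 and 0.21 and did not pass. Without knockout replicate 3, only Phlda1, Ccnd1 and Spred3 fell, and the replicate block left 4 in place of 6.

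Among 37 other immediate early genes, 10 fell, 1 rose and 26 did not pass, beside 12.2% and 11.6% of all genes tested that fell and rose. Their median log2 fold change was -0.29. Arc, a cytoskeletal regulator known from active synapses, had 1507, 1815, 1468 and 1157 normalized counts in the wildtype and 162.5, 162.2 and 150.8 in the knockout libraries, which is 10.7% of the wildtype level (log2 fold change -3.23, SE 0.16, edgeR adjusted p = 4.27e-05). The summed level of the 10 neuron markers was higher in the same knockout libraries, at 1048 to 1281 CPM against 511.2 to 699.5 CPM in the wildtype. That of the 10 oligodendrocyte markers was lower, at 8028 to 9058 CPM against 24970 to 29470 CPM. Which cells the Arc transcripts came from was not tested. Plk3, a polo-like kinase, fell from 1394 ± 157 to 290 ± 31.8 normalized counts (log2 fold change -2.26, edgeR adjusted p = 6.41e-05). Arc and Plk3 also passed with the fibroblast and mural markers as a covariate, together with Gadd45b and Errfi1, which were singled out after their values were seen. Ptgs2, the inducible enzyme of prostaglandin synthesis, had 158, 140.8, 675.5 and 667.4 normalized counts in wildtype replicates 1 to 4 and 34.3, 21.31 and 71.59 in the knockouts (log2 fold change -3.26, SE 0.78, edgeR adjusted p = 0.0240). As for Fos, its wildtype libraries split in pairs, with replicates 3 and 4 high. Without wildtype replicate 4, knockout replicate 1 or knockout replicate 2 Ptgs2 did not pass, and the number of changed genes in the list was 6 in place of 11 each time. Myc, a growth regulator, was the gene that rose, from 2698 ± 369 to 4173 ± 297 normalized counts (log2 fold change 0.63, edgeR adjusted p = 0.00814). The abundant Rhob and Homer1 had log2 fold changes of -0.13 and -0.04 and did not pass.

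**Figure D5:**
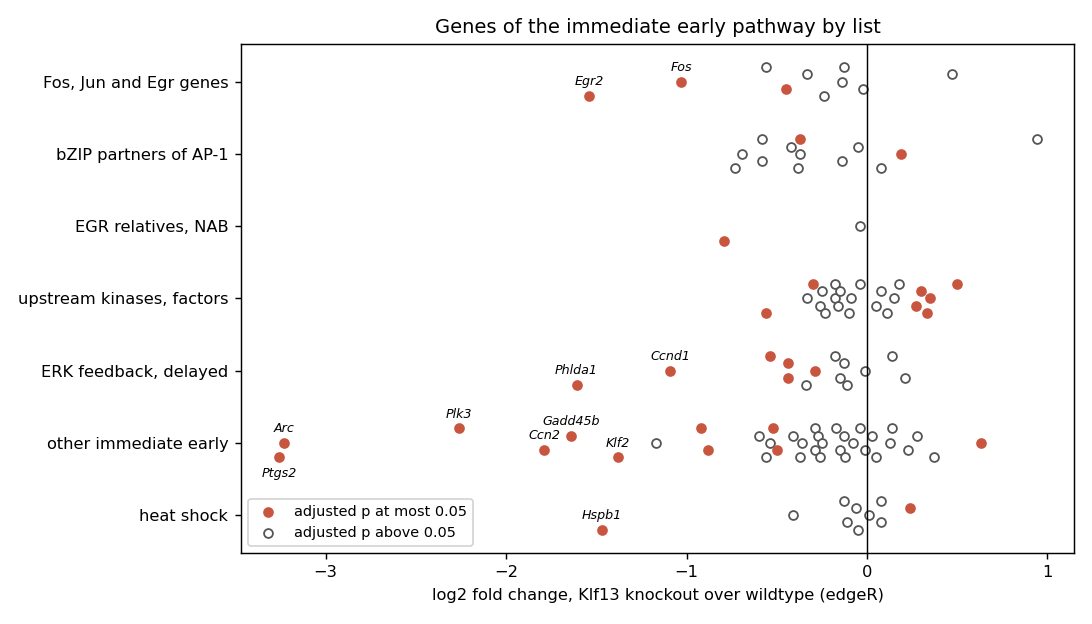
Log2 fold change in Klf13 knockout over wildtype libraries (horizontal axis, edgeR) of every tested gene of 7 lists (rows, points spread vertically for sight only), filled where the adjusted p was at most 0.05 and named where it also changed at least 2-fold. The largest decreases are those of Ptgs2 and Arc at -3.26 and -3.23, and 1 of 37 genes in their row rose, beside 11.6% of all genes tested.

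Of 10 heat shock genes, some of which respond to stress and handling, 1 fell, 1 rose and 8 did not pass, beside 23.8% of all genes that changed in either direction. Their median was -0.05 on the log2 scale. Their summed level was 2284 to 2517 CPM in the wildtype and 2380 to 2504 CPM in the knockout libraries. This sum rests mainly on Hspa8 and Hsp90aa1, with wildtype means of 55670 and 26990 normalized counts. It says little about scarce genes of the list, such as Hspa1a and Hspa1b at 88.66 and 138.8, singled out here for their low level. Hspa8, Hsp90aa1 and Hspd1, the most abundant, had log2 fold changes of -0.05, 0.01 and 0.08. Hspb1, a small heat shock protein, fell by 1.47 on the log2 scale (edgeR adjusted p = 0.0270), and its wildtype libraries 3 and 4 were the highest, at 219.5 and 214.4 normalized counts. Hspe1, a mitochondrial chaperonin, rose by 0.24 (edgeR adjusted p = 0.0191). Neither passed without knockout replicate 1 or 2, and Hspb1 did not pass without wildtype replicate 4 or knockout replicate 3.

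The genes most like Fos across the 7 libraries, by the root mean square difference of log2 levels after each gene was centred on its mean, were Sgms2, Col20a1 and Tbx18, with differences of 0.119, 0.130 and 0.140. For Egr1 they included Gpr108 and Slc35f6, at 0.0431 and 0.0621. Egr2, whose log2 levels spanned the widest range of the 10 genes (2.41, with Junb next at 2.39), was most like Sec16b, Piezo2 and Tmem159, at 0.166, 0.18 and 0.205. All these values describe 7 libraries that share the same 2 groups.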

How the data were processed

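The deposited files hold raw counts per gene. The authors trimmed reads with Trimmomatic 0.36, aligned them with STAR 2.5.2b to the mouse genome of ENSEMBL (GRCm38, per the labels) and counted unique hits within exons with featureCounts of Subread 1.5.2. The annotation release and whether strand was used are not given in the sources used here. Symbols were matched for 48970 of 49315 identifiers. Libraries were grouped by their titles. Counts were filtered with filterByExpr, scaled with TMM factors and tested with edgeR 4.0.16 (quasi-likelihood, robust, genotype as the only term, R 4.3.3), with Benjamini-Hochberg adjustment over 18352 genes. The standard error is the log2 fold change divided by the square root of F. The fit was tested on simulated data. CPM values use TMM-scaled library sizes. Alternatives were DESeq2 1.42.0, other scalings and filters, covariates, single libraries left out, and, chosen after seeing the data, GC offsets, marker covariates and subsets of libraries. Nothing in the sources ties same-numbered libraries to a shared litter or day, but deviations from the group means correlated at 0.11, 0.46 and 0.17 in the 3 same-numbered pairs (across genes, which are not independent replicates), so the number was also fitted as a block.

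The 10 genes and all lists were chosen with earlier results of these data known. Named from each other list are the 3 genes with the highest mean log2 CPM and the 3 with the largest changes that passed. Some genes that this rule names are not reported here. Motif positions give the first base of a match on the printed strand, counted back from the start site.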

Additional observations from a re-analysis of the deposited data

Results flagged for a closer look

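Control libraries were searched for a single library far from the other 3 in 25 measures, the normalized counts of the 10 genes and of Klf13 and the summed levels of the 14 lists, a search in which chance alone marks about 1 in 20. The sum of the 8 microglia markers stood apart in wildtype replicate 3, at 1708 CPM. In the same library the sum of the 15 leucine zipper partners and inhibitors of AP-1 stood apart at 731.1 CPM, against 488.3 to 506.3 CPM in the other wildtype libraries. None of the 10 Fos, Jun and Egr genes was marked, although Junb was also highest in this library.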

How the results depend on the processing

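Fos, Egr1 and Egr2 were lower in the knockouts under all 21 alternatives, with log2 fold changes of -1.15 to -0.41, -0.54 to -0.24 and -1.74 to -0.72, and passed an adjusted p of 0.05 in 15, 12 and 16 of them. With the replicate number as a block, the log2 fold changes were -0.91, -0.47 and -1.42, and all 3 still passed in edgeR (adjusted p = 0.0211, 0.0234 and 0.0179). The block took Fos just under 2-fold, so that 1 of the 10 genes, in place of 2, was 2-fold lower, and it left 1 changed AP-1 partner in place of 2 (Atf2 lost its call). It ended no call among the members. Outside them, it also ended the calls of Mapk10, Spry1, Spry4, Klf2 and Trib1. Of the 10 genes, 3 passed in the main fit and 0 passed in the libraries above 10% ribosomal RNA share alone (2 against 2), with wildtype replicates 1 and 2 alone, and with the fibroblast and mural covariate, and 0 were then 2-fold lower. With scaling by total counts, with library sizes that left out the 100 highest genes, with GC offsets and the block, or with the microglia covariate, 1 was 2-fold lower. Changed AP-1 partners numbered 1 with total counts, without a filter, with GC offsets, with these and the block, and in the libraries above 10%, and 0 with the fibroblast covariate. In the libraries above 10%, with the fibroblast covariate and with wildtype replicates 1 and 2 alone, upstream genes numbered 2, 1 and 3 in place of 7, ERK feedback genes 3, 2 and 3 in place of 6, other immediate early genes 6, 4 and 7 in place of 11, and heat shock genes 0, 0 and 0 in place of 2. Heat shock genes numbered 1 under GC offsets with the block. Fewer libraries entered the subsets, and for the other changes the cause was not tested. With single libraries left out, the counts ran from 0 to 3 for the 10 genes, 0 to 2 for those 2-fold changed, 1 to 3 for AP-1 partners, 3 to 6 for upstream genes, 3 to 5 for ERK feedback genes, 6 to 11 for other immediate early genes and 0 to 2 for heat shock genes, and the EGR relatives kept a count of 1.

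The signs of Fosl2, Junb and Jund, none of which passed the test, changed under some alternatives. Fosl2 was at 0.03, 0.05, 0.01, 0.06, 0.05, 0.28 and 0.23 with total counts, library sizes without the 100 highest genes, the block, the ribosomal share covariate, the microglia covariate, the fibroblast covariate and wildtype replicates 1 and 2 alone, and at -0.13 to 0.13 with single libraries left out. Junb was at 0.09 with the ribosomal share covariate, 0.16 in the libraries above 10%, 0.08 with the fibroblast covariate, 0.08 with wildtype replicates 1 and 2 alone, and -0.84 to 0.14 with single libraries left out. Jund was at 0.14 with the ribosomal share covariate and -0.53 to 0.07 with single libraries left out. Klf13 stayed between -3.75 and -3.61.

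Over all genes, 2246 fell and 2122 rose in the main fit. Library sizes without the 100 highest genes gave 1673 and 2656. Without knockout replicate 1 the numbers were 1254 and 1209, without knockout replicate 2 they were 1317 and 850, in the libraries above 10% 1025 and 650, and with wildtype replicates 1 and 2 alone 1489 and 1177. Egr2 and Egr3 had the fewest counts of the 10 genes over all libraries together, and a count of 0 in a library would allow up to 3 counts, 5.03e-06% to 1.22e-05% of its total, counting error only.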

Other observations

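Several other genes were highest in wildtype replicates 3 and 4, as Fos and Egr2 were, and all were chosen after their values were seen. Ccn2, a matrix-associated growth regulator, had 1724, 1610, 4466 and 4217 normalized counts in wildtype replicates 1 to 4 and 792.6, 617.3 and 1203 in knockout replicates 1 to 3. Klf2, a Krüppel-like factor known from endothelial cells, had 27, 49.27, 78.87 and 73.95 and then 21.67, 26.12 and 18.28. Gadd45b, a stress-induced growth arrest gene, had 671.1, 836.6, 1070 and 1061 normalized counts in the wildtype libraries and 335.8, 282.5 and 262.8 in the knockouts. Csrnp1, a nuclear protein gene of the immediate early class, had 502.3, 503.8, 649.2 and 696.4 normalized counts in the wildtype libraries and 316, 319.6 and 322.2 in the knockouts.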
